A study of Mus musculus with 6 samples.

Results

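The comparison described here sets neural stem cells labelled homozygous for a changed Ecrg4 allele against those labelled wild type. It rests on 4 of the 6 arrays of the series, 2 for each of these genotypes, and on every probe with a value on all 4 of them, 20942 of the 23466 probes of the array. The remaining 2 arrays hold heterozygous cells, which enter only the estimate of the spread and are quoted beside some genes. All cells were brain cells of C57BL6 mice aged postnatal day 0. They were cultured without any treatment in DMEM/F12 medium that held heparin and the mitogens bFGF and EGF. The wild-type, heterozygous and homozygous groups share this strain, age and medium, and by the labels they differ in Ecrg4 alone. The sources used here do not give how the allele was changed, the sex of the animals, or whether 2 arrays of a genotype stand for separate animals or cultures. P-values thus measure the spread among these 6 arrays alone, and that spread may be technical.

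Ecrg4 encodes augurin, a small secreted precursor protein that is cut into shorter peptides. In the brain it is known from the choroid plexus, the ependyma and neural progenitors, and it has been described as a tumour suppressor candidate and as a factor linked to senescence of neural precursor cells. Neural stem cells grown with EGF and FGF divide and stay undifferentiated; they carry radial glial genes, and give rise to neurons, astrocytes and oligodendrocytes once the mitogens are withdrawn. The question the comparison addresses is which transcripts differ when the Ecrg4 transcript is lost from such cultures.

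Values are 1-colour probe intensities, scaled by the authors so that the median of every array is 30. Probes for olfactory receptor genes, a large family with little known use in neural stem cells, served as a working background. Their 95th percentile lay at 53 and 57.6 on the wild-type arrays and at 51.3 and 56.5 on the homozygous arrays, and is called the olfactory level below. A probe under it on all 4 arrays is called dim. For a gene whose lower genotype stayed under it on both arrays, the fold is given as a bound, with these arrays set at the olfactory level. Across all tested probes the 2 wild-type arrays correlated at r = 0.989 and the 2 homozygous arrays at r = 0.994, and 4.05% and 1.49% of probes lay over 2-fold apart within each pair.

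Ecrg4 itself was examined first. Its probe read 112.9 and 154.9 on the wild-type arrays and 1.4 and 1.3 on the homozygous arrays, and 345.5 and 373.9 on the heterozygous arrays. The homozygous values lay next to the lowest values measured on those arrays, 1.2 and 1.0. The log2 fold change was -6.62 ± 0.19 (SE, n = 2 arrays each, limma adjusted p = 0.000602). With the homozygous arrays at the olfactory level the decrease was at least 2.46-fold. It passed the threshold of an adjusted p of 0.05 in the reported fit and in each of the 16 alternatives computed. The sources used here do not say which part of the transcript the probe detects, so it checks the homozygous label without describing the allele. The 250 bases before the RefSeq start of Ecrg4 in build GRCm38.p6 are printed to place the targeted gene, 5′ to 3′ on its own strand.
Ecrg4 (chr1:43730352-43730601, plus strand): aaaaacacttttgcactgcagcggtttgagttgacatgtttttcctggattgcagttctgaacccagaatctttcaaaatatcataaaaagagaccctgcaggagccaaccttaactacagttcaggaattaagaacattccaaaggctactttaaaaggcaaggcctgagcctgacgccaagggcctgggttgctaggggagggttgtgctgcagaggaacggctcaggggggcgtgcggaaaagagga
The 25 genes on each side of Ecrg4 on chromosome 1 were looked up in the RefSeq order. Of these 50 genes 15 were measured and none passed the threshold by limma; the lowest adjusted p was 0.0895. Their log2 fold changes ran from -0.79 to 0.63 with a median of 0.02, and the median over all tested probes was 0.02. The nearest measured gene on one side was Fhl2, which encodes a LIM domain adaptor. It read 13.8 and 20.0 in wild type and 15.9 and 20.5 in homozygous cells, all dim. On the other side Uxs1, which encodes a UDP-xylose synthase, read 210.4 and 329.0 in wild type and 333.9 and 397.0 in homozygous cells (0.47 ± 0.25, limma adjusted p = 0.363).

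In all, 154 probes passed the threshold, 0.735% of those tested. Of these, 72 (0.344%) were higher and 82 (0.392%) lower in the homozygous arrays, and these shares are the background for each count of list members. The lists were chosen with earlier results of these data known, so their counts and medians are not independent evidence. The 154 probes include 51 named genes that rose and 60 that fell, and 43 probes carry no gene name. The arrays of the genotypes did not overlap in any of the 154, nor in 50.2% of all tested probes, and the smallest change among the 154 was 2.03-fold. Of the 154 probes 50 were dim, and in 45 more the lower genotype lay under the olfactory level on both arrays. At an unadjusted p under 0.05 there were 3912 probes. The number of calls depends on the arrays used. It was 45 without either heterozygous array, 8 and 2 without wild-type arrays 1 and 2, and 1, Ecrg4, without either homozygous array. Of the 52 passing genes named in the text besides Ecrg4, 23 still passed without either heterozygous array, 4 (Ddit4l, Nxph1, Vit and Rcn3) when wild-type array 1 was left out, 1 (Ddit4l) when wild-type array 2 was, and none without either homozygous array. Their directions could not reverse in these fits, as the arrays of the 2 genotypes did not overlap.

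**Figure D1:**
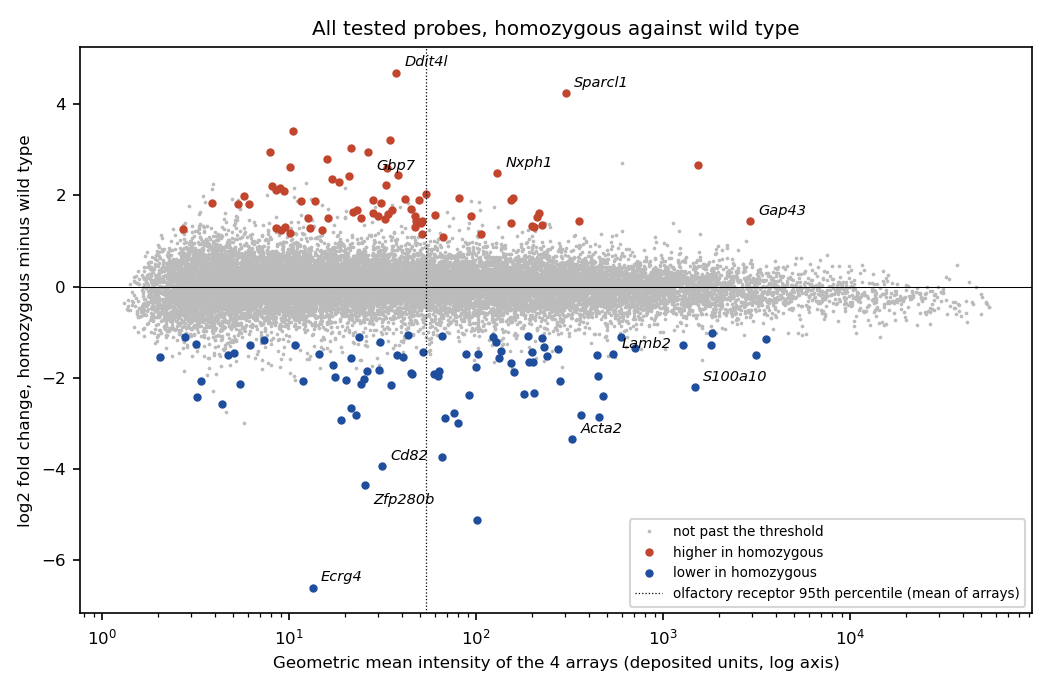
Log2 fold change of each tested probe (homozygous minus wild type, vertical axis) against its geometric mean intensity over the 4 arrays (horizontal log axis, deposited units). Red points are the 72 probes that rose, blue points the 82 that fell, grey points all others, and the dotted line is the mean olfactory level. Ecrg4 lies lowest at -6.62, and many of the coloured points lie left of the line, where probes are near background.

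The genes that rose are given first, beginning with those that encode secreted or matrix proteins. Sparcl1, a matricellular glycoprotein that astrocytes secrete, read 55.9 and 85.0 in wild type and 1324.9 and 1300.9 in homozygous cells. The homozygous arrays thus stood 19.1-fold above the wild-type arrays (4.25 ± 0.28, limma adjusted p = 0.00694), and the heterozygous arrays, at 128.4 and 198.3, lay between. In these bulk RNA samples more cells of a type and more RNA per cell cannot be told apart. Nxph1, a secreted ligand of neurexins, read 62.5 and 47.3 in wild type and 312.2 and 302.1 in homozygous cells (2.50 ± 0.18, adjusted p = 0.00809), and its heterozygous arrays, at 38.4 and 38.8, were the lowest. Igfbp4, which binds insulin-like growth factors, read 73.4 and 87.3 against 303.0 and 310.6 (1.94 ± 0.16, adjusted p = 0.0106). Its heterozygous arrays, at 231.7 and 242.8, lay nearer the homozygous than the wild-type level. Matn2, a matrilin of the extracellular matrix, read 76.4 and 82.0 against 271.7 and 319.9 (1.90 ± 0.18, adjusted p = 0.0191). The rule that picked these genes required both homozygous arrays to lie above both wild-type arrays and above the olfactory level.

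Ddit4l, an inhibitor of mTORC1 signalling, read 8.8 and 6.1 in wild type and 193.4 and 186.6 in homozygous cells, with the heterozygous arrays between at 62.8 and 56.6. Its wild-type arrays lay under the olfactory level, so the increase was at least 3.44-fold (4.70 ± 0.21 on the measured values, limma adjusted p = 0.00382). Cd36, a receptor for fatty acids and oxidised lipoproteins, read 16.7 and 15.9 against 85.0 and 93.9, an increase of at least 1.62-fold (adjusted p = 0.00694). Apoa2, an apolipoprotein of high-density lipoprotein, read 16.5 and 14.1 against 66.0 and 78.5, at least 1.30-fold higher (adjusted p = 0.00918). Both lipid-handling genes thus moved from under to just above the olfactory level. Ctsc, a lysosomal cysteine protease, read 27.5 and 26.2 against 101.1 and 119.2, at least 1.99-fold higher (adjusted p = 0.00963), and its heterozygous arrays were higher still at 227.8 and 207.4.

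The other named increases follow. St6gal1, a sialyltransferase of the Golgi, read 116.2 and 130.4 in wild type and 387.4 and 369.7 in homozygous cells (1.62 ± 0.17, limma adjusted p = 0.0239). Rcan2, a regulator of calcineurin, read 22.4 and 20.5 against 73.5 and 89.3, at least 1.47-fold higher (adjusted p = 0.0191). Bcar3, an adaptor of integrin signalling, read 32.1 and 37.7 against 101.5 and 104.9, at least 1.87-fold higher (adjusted p = 0.0358). These rises started from wild-type levels under the olfactory level, except for St6gal1. Trim9, a ubiquitin ligase of neurons, read 21.8 and 28.5 against 90.4 and 72.3, at least 1.46-fold higher (adjusted p = 0.0408). Efnb2, a membrane-bound ligand of Eph receptors, read 20.8 and 18.3 against 52.6 and 66.1, at least 1.07-fold higher (adjusted p = 0.0315).

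Among passing probes the largest fall after Ecrg4 was on a probe without a gene name, at least 11.1-fold (limma adjusted p = 0.0054). That probe read 569.3 and 624.2 in wild type and 15.4 and 18.7 in homozygous cells. Apart from Ecrg4, the named genes picked for their large falls had varied roles. Acta2, smooth muscle actin, read 1229.5 and 894.8 in wild type and 88.0 and 118.5 in homozygous cells, 10.3-fold lower (-3.36 ± 0.23, limma adjusted p = 0.00694). Its heterozygous arrays, at 277.5 and 284.6, lay between. Tgfb1i1, a LIM protein of focal adhesions also called Hic-5, read 200.7 and 217.1 against 40.2 and 40.2, at least 3.88-fold lower (adjusted p = 0.00694). Cd82, a tetraspanin, read 101.0 and 149.4 against 6.5 and 9.7, at least 2.28-fold lower (adjusted p = 0.0242). S100a10, the partner of annexin A2 at the plasma membrane, was bright in all cells and read 2873.8 and 3530.9 against 626.7 and 752.9 (-2.21 ± 0.19, adjusted p = 0.0132). Homozygous cells kept it well above the olfactory level, at a level 4.64-fold below wild type, and the heterozygous arrays were the highest at 5834.9 and 4940.7.

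Vit, the matrix protein vitrin, read 139.9 and 246.9 in wild type and 23.3 and 26.9 in homozygous cells, at least 3.45-fold lower (limma adjusted p = 0.0191). Lamb2, the laminin beta 2 chain of basement membranes, read 859.9 and 953.1 against 339.1 and 307.3 (-1.49 ± 0.16, adjusted p = 0.0247). Rcn3, a calcium-binding protein of the endoplasmic reticulum, read 313.2 and 538.0 against 78.1 and 80.6 (-2.37 ± 0.26, adjusted p = 0.0262). In Vit and Rcn3 wild-type array 2 read well above wild-type array 1, and both still lay above the homozygous arrays. Gng2, a gamma subunit of heterotrimeric G proteins, read 59.6 and 61.4 against 8.7 and 8.3, at least 1.12-fold lower (adjusted p = 0.00694). Ramp1, a subunit of the receptor for calcitonin gene-related peptide, read 150.4 and 266.7 against 31.6 and 26.8, at least 3.72-fold lower (adjusted p = 0.0247). Its heterozygous arrays, at 13.1 and 10.1, were lower still, so its level did not follow the order of the genotypes.

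Dbx2, a homeobox gene of ventricular zone progenitors, read 531.0 and 632.4 in wild type and 173.4 and 108.9 in homozygous cells (-2.08 ± 0.27, limma adjusted p = 0.0375). Neil3, a DNA glycosylase of dividing cells, read 121.3 and 124.8 against 31.7 and 31.2, at least 2.29-fold lower (adjusted p = 0.0191). Gsta4, a glutathione transferase that detoxifies lipid aldehydes, read 749.2 and 1043.7 against 281.0 and 181.2 (-1.97 ± 0.27, adjusted p = 0.0427). The homozygous arrays of all these genes lay below both wild-type arrays, as the rule that picked them required. Zfp280b, a zinc finger gene, read 141.4 and 94.4 against 6.2 and 5.1, at least 2.15-fold lower (adjusted p = 0.00744), and the heterozygous arrays read 5.7 and 3.5. Xlr3b read 1191.5 and 1254.4 against 192.1 and 144.7 (-2.87 ± 0.28, adjusted p = 0.0197). It belongs to an X-linked multigene family whose near-identical copies its probe may not separate, and its heterozygous arrays read 10.4 and 6.2.

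**Figure D2:**
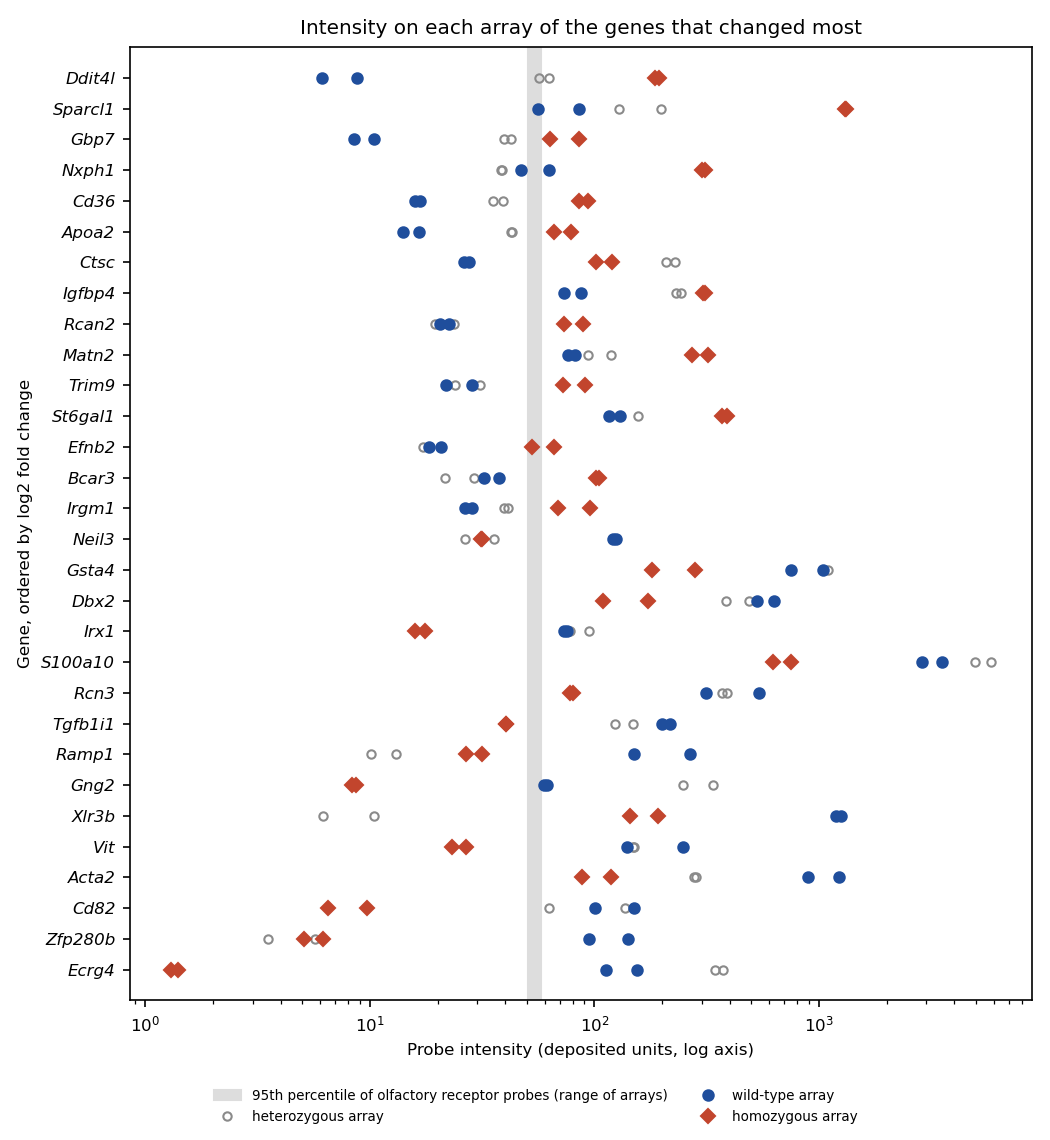
Intensity (horizontal log axis, deposited units) on each array of 15 genes that rose and 15 that fell, ordered by log2 fold change. They are the largest changes among named genes that passed with separate genotypes and the brighter genotype above the olfactory level on both arrays. Larger changes on dimmer or unnamed probes are left out. Filled circles are wild-type, diamonds homozygous and open circles heterozygous arrays, and the grey band is the range of the olfactory level over the arrays. Wild-type and homozygous symbols do not overlap for any gene shown, which the choice of genes required. The increases often start left of the band, and the heterozygous symbols of Ecrg4, Gng2, Ctsc, S100a10 and Irx1 lie right of both other genotypes.

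The cultures were checked against markers of their labelled type. Of 24 measured stem and progenitor cell markers 17 lay above the olfactory level on all 4 arrays. Fabp7, the lipid carrier of radial glia, read between 37399.8 and 46801.5 on these arrays, and Vim, which encodes an intermediate filament, between 17331.9 and 23583.8. Emx2, a homeobox gene of the dorsal forebrain, was the 1 member that passed; it read 16.0 and 19.2 in wild type and 53.9 and 49.1 in homozygous cells (1.55 ± 0.16, limma adjusted p = 0.0242), with only 1 array above the olfactory level. The list's median was 0.12, against 0.02 for all probes. None of 14 oligodendrocyte lineage genes passed (median 0.12), and its brightest, the lineage factors Olig1 and Olig2, read 6805.9 and 6933.1 and 2828.7 and 3202.6 in wild type and 10348.0 and 8505.6 and 2948.5 and 2576.3 in homozygous cells. Of 22 astrocyte genes Sparcl1 alone passed and 11 lay below 0; the filament gene Gfap was dim on all 4 arrays and Apoe read 8215.5 and 10663.9 against 12851.0 and 7184.8, which overlap.

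Neuron genes had several passing members, on a list made in part with values known. Of 23 measured members 5 passed and all 5 rose, against 0.344% of all probes. The median of the list was 0.38, and 6 members lay below 0. Nxph1, Brinp1 and Cadps were put on this list with their values known, so neither the count nor the median is independent evidence of its direction. Gap43, a growth cone protein, read 1758.0 and 1778.9 in wild type and 4809.2 and 4796.1 in homozygous cells (1.44 ± 0.19, limma adjusted p = 0.0397). Its heterozygous arrays read 3782.4 and 5138.8, so its level was as high there. Elavl4, a neuronal RNA-binding protein named after its value was seen, read 107.8 and 83.0 against 254.6 and 244.3 (1.40 ± 0.19, adjusted p = 0.0451). Brinp1 (2.62 ± 0.26, adjusted p = 0.0208) and the vesicle priming factor Cadps (2.37 ± 0.28, adjusted p = 0.0315) rose on dim probes. The neuronal markers Tubb3 and Dcx were dim as well, at 52.3 and 39.5 and 13.1 and 15.6 in wild type and 48.6 and 39.0 and 30.8 and 16.7 in homozygous cells. In all, 18 of the 23 probes were under the olfactory level on all 4 arrays. The count of 5 was 2 when either heterozygous array was left out, 1 when wild-type array 1 was, and 0 when wild-type array 2 or either homozygous array was.

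Markers of other cells that a brain culture can hold were mostly, but not all, under the olfactory level. Of 15 microglia and macrophage genes none exceeded the olfactory level on all 4 arrays and 14 were under it on all 4, with a summed intensity of 232.6 and 270.5 in wild type and 272.4 and 296.0 in homozygous cells. P2ry12, a purinergic receptor of microglia, rose from 3.0 and 2.8 to 12.4 and 10.6 (limma adjusted p = 0.0254), and Cd14, a co-receptor for bacterial lipopolysaccharide, from 6.4 and 5.4 to 12.5 and 15.3 (adjusted p = 0.0498), both dim. No member of the endothelial and mural, meningeal and fibroblast, or ependymal and choroid plexus lists passed, of 13, 17 and 12 measured, and the medians were -0.08, -0.14 and -0.29. On all 4 arrays 11, 14 and 9 of them were under the olfactory level and 0, 1 and 3 above it. Those above were the fibronectin gene Fn1, at 95.3 and 181.4 in wild type and 90.9 and 84.4 in homozygous cells, and the ependymal and choroid plexus list members Foxj1, Otx2 and Meig1. Foxj1, a factor of motile cilia, read 171.6 and 155.1 against 128.2 and 170.3. Their summed intensities were 296.8 and 427.1, 369.4 and 525.3, and 439.2 and 567.3 in wild type and 310.6 and 272.7, 360.5 and 316.7, and 410.5 and 435.8 in homozygous cells. Acta2 is also a gene of mural cells. Of the endothelial and mural list, Pdgfrb, Rgs5, Kcnj8 and Abcc9 were under the olfactory level on all 4 arrays. Its 2 brightest members were not. Flt1 read 113.7 and 170.9 in wild type and 104.1 and 54.4 in homozygous cells, and Anpep 44.7 and 110.6 against 82.8 and 86.4. Whether mural cells have a part in the fall of Acta2 was not tested.

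Sex-linked genes were also looked at, in a list made after the values were seen. All 4 measured X-linked genes that are known to escape X inactivation read higher on both homozygous arrays than on both wild-type arrays, as did 25.4% of all probes, and 1 of them passed. Eif2s3x, which encodes a translation initiation subunit, read 132.6 and 126.1 in wild type, 146.2 and 154.4 in heterozygous and 351.5 and 292.1 in homozygous cells (1.31 ± 0.16, limma adjusted p = 0.0334). The demethylase gene Kdm6a read 146.6 and 162.9 in wild type and 205.6 and 241.6 in homozygous cells (0.53 ± 0.16, adjusted p = 0.175), and Kdm5c was dim. The helicase gene Ddx3x read 976.9 and 1139.4 against 1647.3 and 1584.2 (0.61 ± 0.16, adjusted p = 0.137) on the brighter of its 2 probes. The Y-linked demethylase gene Kdm5d read 114.1 and 107.3 against 68.1 and 82.5 (-0.56 ± 0.17, adjusted p = 0.174), which is above the olfactory level in both genotypes. Zfy1, the other Y-linked gene measured, was dim and its arrays overlapped, at 8.7 and 6.2 against 6.2 and 5.3 (limma adjusted p = 0.397). Over 494 genes of the X chromosome the median log2 fold change was 0.02, as over all genes. Xist and the Y-linked genes Ddx3y, Eif2s3y, Uty and Sry had no tested probe. The part that the sex of the animals has in the differences reported here was not tested.

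Guanylate-binding proteins and immunity-related GTPases, which interferon induces in defence against pathogens, were represented among the named increases by Gbp7 and Irgm1. Of the 26 measured genes on the wider list of interferon-inducible genes 4 rose in the reported fit, against 0.344% of all probes, and none fell. Of the 4 genes 2 are such GTPases. This list was chosen with earlier results of these data known, so its count is not independent evidence. Gbp7, a guanylate-binding protein, read 10.4 and 8.5 in wild type, 39.4 and 42.4 in heterozygous and 85.3 and 63.1 in homozygous cells, at least 1.33-fold higher in homozygous than in wild type (limma adjusted p = 0.00744). Irgm1, an immunity-related GTPase, read 28.5 and 26.6 in wild type and 95.1 and 68.5 in homozygous cells, at least 1.46-fold higher (adjusted p = 0.0361). The chemokine gene Cxcl10 (7.4 and 7.6 against 19.3 and 23.8, adjusted p = 0.0331) and Ifit2, a translation inhibitor (6.3 and 7.2 against 16.0 and 14.6, adjusted p = 0.0408), rose on dim probes. The list as a whole had a median of 0.08 with 9 members below 0, and its brightest member B2m, the light chain of class I histocompatibility molecules, read 1943.2 and 3422.0 against 2605.1 and 2360.4. The count of 4 was 1 with only the 4 arrays compared, with array weights or without either heterozygous array, and 0 without either wild-type or either homozygous array.

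The promoters of these genes were searched for the core of the interferon-stimulated response element, GAAA followed by any 2 bases and GAAA on either strand, in the 250 bases before the start. It was present in 3.46% of 27025 genes with a promoter in the RefSeq table, and in 11 of the 20 list members with one (55.0%). The list was made of genes known to be interferon-inducible, so its share is no result of these arrays. The core occurred in Gbp7, Irgm1 and Cxcl10 and not in Ifit2. The match begins 53 bases before the start in Gbp7 and 213 in Cxcl10, and at 30 and 24, overlapping, in Irgm1. The sequences of the 3 members that rose and hold it are given 5′ to 3′ on the strand of the gene (build GRCm38.p6), with the match in capitals. A match is a stretch of letters and no evidence of binding in these cells.
Gbp7 (chr3:142530086-142530335, plus strand): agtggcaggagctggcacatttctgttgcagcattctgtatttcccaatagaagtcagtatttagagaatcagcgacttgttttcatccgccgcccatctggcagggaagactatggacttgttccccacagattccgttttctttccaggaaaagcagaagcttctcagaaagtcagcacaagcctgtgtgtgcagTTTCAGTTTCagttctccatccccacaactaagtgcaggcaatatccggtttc
Irgm1 (chr11:48871421-48871670, minus strand): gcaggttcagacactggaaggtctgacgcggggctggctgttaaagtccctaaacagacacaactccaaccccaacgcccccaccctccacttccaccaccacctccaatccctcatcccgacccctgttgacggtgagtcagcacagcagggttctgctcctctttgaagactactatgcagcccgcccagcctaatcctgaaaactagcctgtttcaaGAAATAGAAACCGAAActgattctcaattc
Cxcl10 (chr5:92348890-92349139, minus strand): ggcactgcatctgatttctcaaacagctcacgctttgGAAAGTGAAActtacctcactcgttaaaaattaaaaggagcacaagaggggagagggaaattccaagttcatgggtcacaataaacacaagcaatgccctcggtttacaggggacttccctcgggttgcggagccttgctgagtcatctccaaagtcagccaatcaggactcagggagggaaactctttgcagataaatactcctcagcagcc

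Glycolysis and hypoxia-inducible genes had the lowest medians of the 26 lists. Over 23 glycolysis genes the median log2 fold change was -0.55, with 17 below 0, and over 22 other hypoxia-inducible genes it was -0.80, with 19 below 0; across all probes the median was 0.02 and 48.0% were below 0. Only Ndrg1, a hypoxia-inducible gene of the N-myc downstream-regulated family, passed and fell, from 44.6 and 59.1 to 11.7 and 11.4 (limma adjusted p = 0.0175). Only wild-type array 2 exceeded the olfactory level, so no bound of its fold can be given. No glycolysis gene passed. In 12 of the 23 and 16 of the 22 both homozygous arrays lay below both wild-type arrays, against 24.8% of all probes.

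Single members show how the arrays were placed. Slc16a3, the lactate exporter, read 358.7 and 800.5 in wild type and 147.6 and 165.6 in homozygous cells (-1.78 ± 0.36, limma adjusted p = 0.0932). Hk2, a hexokinase, read 249.5 and 388.4 against 129.9 and 142.9 (-1.19 ± 0.24, adjusted p = 0.0935). Ldha, lactate dehydrogenase A, read 17654.5 and 23252.2 against 11685.8 and 11023.3 (-0.84 ± 0.18, adjusted p = 0.109). In each of them wild-type array 2 was the highest of the 4 arrays, wild-type array 1 came next and both homozygous arrays were lower. Pdk1, which restrains entry of pyruvate into mitochondria, read 233.7 and 557.5 against 145.6 and 102.1 (-1.57 ± 0.44, adjusted p = 0.161). Adm, a hypoxia-inducible peptide hormone, had the opposite sign, at 584.0 and 845.0 against 1838.6 and 1835.2 (1.39 ± 0.27, adjusted p = 0.0844). The glycolytic regulator Pfkfb3 also had a positive sign, at 152.8 and 146.7 against 237.9 and 229.3 (0.64 ± 0.14, adjusted p = 0.108). None of these members passed in the reported fit.

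Relative to each gene's mean over the 6 arrays, the glycolysis genes averaged -0.13 and 0.40 in wild type, 0.13 and 0.31 in heterozygous and -0.27 and -0.44 in homozygous arrays on the log2 scale. The other hypoxia-inducible genes averaged -0.08 and 0.59, 0.24 and 0.23, and -0.37 and -0.61. The homozygous arrays were thus the lowest in both groups, and the wild-type arrays differed from each other by more than the homozygous arrays did. In both groups wild-type array 1 lay nearer to homozygous array 1 than to wild-type array 2, so the size of the difference rests largely on wild-type array 2. The medians were -0.36 and -0.44 when wild-type array 2 was left out, and -0.85 and -1.16 when wild-type array 1 was. Intensity moved with the fold change as well: over the 420 tested probes at 5000 or more the median was -0.20, with 79.0% below 0, and over the 6344 between 50 and 500 it was 0.03. Cyclic loess, which levels such a trend, gave medians of -0.44 for glycolysis and -0.84 for the other hypoxia-inducible genes. When probes were tested only if the brighter genotype exceeded the olfactory level, 9.87% of 9150 probes passed. That filter keeps a probe by the genotype in which it is higher, so it is not independent of the comparison. Its counts are given as a dependence on processing and add no support. Under that filter 9 of 20 glycolysis genes fell and 1 rose, and 3 of 15 other hypoxia-inducible genes fell and 1 rose, against 5.57% of probes lower and 4.3% higher.

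**Figure D3:**
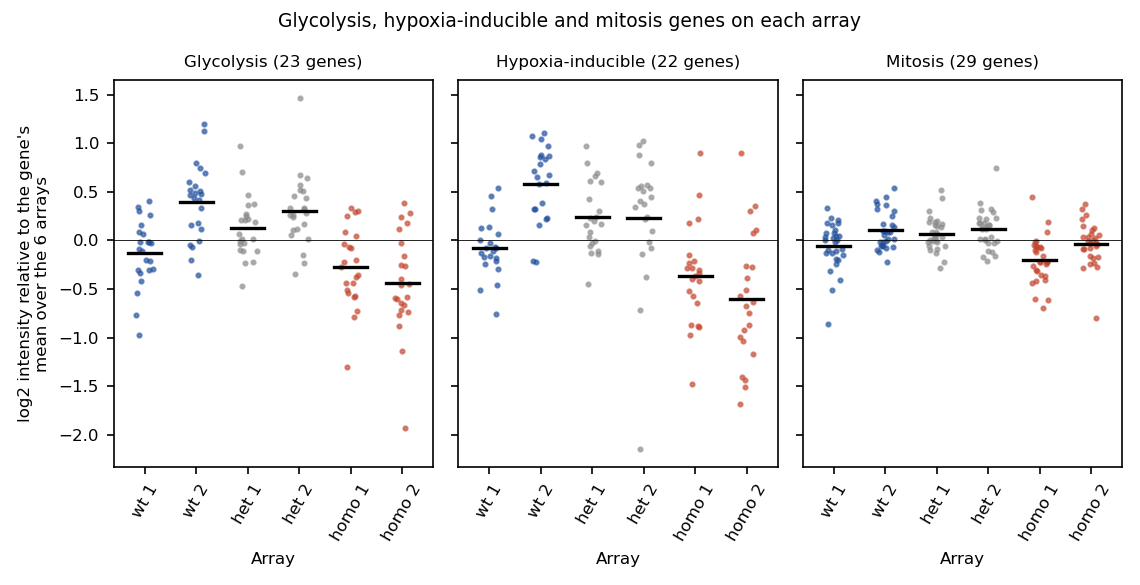
Log2 intensity of each gene relative to its mean over the 6 arrays (vertical axis), for glycolysis, other hypoxia-inducible and mitosis genes on each array (horizontal axis). Points are genes and bars their mean per array. The bars of both homozygous arrays are the lowest in the first and second panels, at -0.27 and -0.44 and at -0.37 and -0.61, while wild-type arrays 1 and 2 differ from each other; in the mitosis panel the bars lie between -0.20 and 0.12.

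The core of the hypoxia response element, ACGTG on either strand, was searched in the same windows. It occurred in 18.5% of 27025 genes, in 11 of 22 glycolysis genes and in 11 of 17 other hypoxia-inducible genes with a promoter in the table. The lists were made of genes known for these pathways, so their shares are no result of these arrays. Here too a match is no evidence of binding in these cells. Slc16a3 and Hk2 are shown as glycolysis genes with 2 matches each, at 27 and 14 bases before the start in Slc16a3 and at 226 and 52 in Hk2. On the printed strand the matches in Hk2 read as the reverse complement.
Slc16a3 (chr11:120948817-120949066, plus strand): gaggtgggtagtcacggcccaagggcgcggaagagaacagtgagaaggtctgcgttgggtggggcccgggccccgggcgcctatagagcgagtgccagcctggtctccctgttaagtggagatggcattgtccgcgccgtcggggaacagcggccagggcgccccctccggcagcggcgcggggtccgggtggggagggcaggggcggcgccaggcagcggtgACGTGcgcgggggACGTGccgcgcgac
Hk2 (chr6:82774455-82774704, minus strand): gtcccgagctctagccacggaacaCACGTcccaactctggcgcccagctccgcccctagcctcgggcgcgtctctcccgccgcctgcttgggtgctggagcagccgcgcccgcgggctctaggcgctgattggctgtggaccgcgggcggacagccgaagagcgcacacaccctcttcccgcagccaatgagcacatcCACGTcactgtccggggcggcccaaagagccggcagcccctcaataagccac

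Genes of the cell cycle and of senescence were examined because of the reported link of Ecrg4 to both. None of 28 G1 and S phase genes and none of 29 mitosis genes passed; their medians were 0.12 and -0.07. Pcna, the clamp of DNA replication, read 10161.9 and 10063.1 in wild type and 10002.1 and 10418.0 in homozygous cells, and the mitotic kinase Cdk1 read 3337.8 and 3832.9 against 3550.4 and 3613.0. Both genes overlapped between genotypes, with 95% intervals of the log2 fold change from -0.35 to 0.38 and from -0.36 to 0.37. The cyclin gene Ccnd2 read 5818.2 and 6041.8 against 9966.3 and 9232.3 (0.69 ± 0.14, limma adjusted p = 0.0937), and the centromere histone gene Cenpa 4437.6 and 4544.7 against 2304.2 and 2887.0 (-0.80 ± 0.18, adjusted p = 0.11). Neither passed. None of 23 senescence and p53 pathway genes passed either, and their median was 0.10. Probes were also tested only if the brighter genotype exceeded the olfactory level. Of 18 senescence and p53 genes 4 then rose (Mdm2, Plk2, Trp53inp1 and Bmi1) and none fell. Of 27 mitosis genes 4 fell (Ccnb2, Mad2l1, Cenpa and Nek2) and none rose. Of all probes so tested 4.3% rose and 5.57% fell. That filter goes by the brighter genotype and is not independent of the comparison, so these counts add no support. Mdm2, the ubiquitin ligase of p53, read 231.9 and 262.2 in wild type and 408.8 and 438.2 in homozygous cells (0.78 ± 0.15, limma adjusted p = 0.0886 in the reported fit and 0.0147 under that filter). The cell cycle inhibitors Cdkn2a and Cdkn1a read 303.4 and 463.8 and 690.4 and 1052.5 in wild type, and 336.5 and 437.0 and 1004.2 and 1196.7 in homozygous cells, with overlapping arrays in both. Of 23 genes that senescent cells secrete, Igfbp4 and the dim Cxcl10 rose and none fell, with a median of -0.09. Igfbp3, of the same binding protein family, read 1180.0 and 951.2 against 2317.5 and 2392.8 (1.15 ± 0.17, adjusted p = 0.056).

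Ecrg4 peptides have been described as ligands of scavenger receptors, so the 18 measured scavenger and pattern receptor genes were listed. Cd36 and the dim Cd14 rose, none fell, and the median was 0.04. The receptor genes Olr1 and Scarf1 were dim, at 13.4 and 11.9 and 20.9 and 26.5 in wild type and 14.1 and 16.0 and 22.2 and 25.6 in homozygous cells. Mitogen targets showed no passing member among 23 EGF and FGF feedback genes, with a median of 0.14; the phosphatase gene Dusp6 read 2325.0 and 2545.4 against 2243.6 and 2301.0. Among 21 Notch, BMP and TGF-beta targets the matrix gene Tgfbi fell on a dim probe, from 8.4 and 13.6 to 2.1 and 1.5 (limma adjusted p = 0.0408), and the median was -0.06. Of 23 G protein genes Gng2 alone fell, with a median of 0.04.

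Few factors of regional identity passed. Of 24 midbrain, hindbrain and spinal cord factors Irx1 and Irx2, neighbouring Iroquois homeobox genes, fell and none rose, against 0.392% of all probes that fell. This count is not independent evidence, as the list was chosen with earlier results known. Irx1 read 73.0 and 75.8 in wild type and 17.5 and 15.9 in homozygous cells, at least 1.38-fold lower (limma adjusted p = 0.00918), and the dim Irx2 read 41.9 and 32.7 against 12.8 and 12.1 (adjusted p = 0.0445). Irx5, from the same family, read 169.7 and 168.6 against 95.8 and 95.1 (-0.83 ± 0.15, adjusted p = 0.0755). Of 23 forebrain factors Emx2 rose and Nr2f2, an orphan nuclear receptor, fell from 88.4 and 81.9 to 30.4 and 32.8, at least 1.58-fold (adjusted p = 0.0247). A second, dim probe of Nr2f2 gave -0.30. The medians of the lists were -0.09 and -0.01.

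Of 27 actin and contractile genes 3 fell, Acta2, Pdlim3 and Mical1, and none rose. Over all probes 0.392% fell and 0.344% rose, which is the background for each count in this paragraph. No count here is independent evidence, as the lists were chosen with earlier results known. Pdlim3, a protein of the Z line, read 40.9 and 71.4 in wild type and 9.4 and 7.8 in homozygous cells (limma adjusted p = 0.0277), and Mical1, an actin-oxidising enzyme, read 50.7 and 53.7 against 7.7 and 6.0 on a dim probe (adjusted p = 0.00918). The list did not move one way: Tagln2, an actin-binding transgelin, read 337.9 and 161.4 against 1412.6 and 1679.3 (2.72 ± 0.39, adjusted p = 0.0504), just outside the threshold, and the median was -0.11. The count of 3 was 6 with median centring and 7 with cyclic loess. Of 34 matrix genes Sparcl1 and the dim metalloprotease gene Mmp14 rose, and Lamb2 and Vit fell (median -0.08). Of 30 adhesion genes Cd82 and the dim neural adhesion gene Chl1 fell, and 15 lay below 0; the tetraspanin genes Cd81 and Cd63 read 8873.7 and 12325.8 and 4407.1 and 5603.8 in wild type and 10766.5 and 9953.4 and 5829.2 and 6242.2 in homozygous cells. Of 25 cholesterol and fatty acid genes Cd36 rose and the sterol reductase gene Tm7sf2 fell, from 2547.1 and 2621.4 to 1231.1 and 1319.8 (-1.02 ± 0.15, adjusted p = 0.0498), with a median of 0.09. Of 25 stress response genes Ddit4l alone passed, and the median was 0.15.

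**Figure D4:**
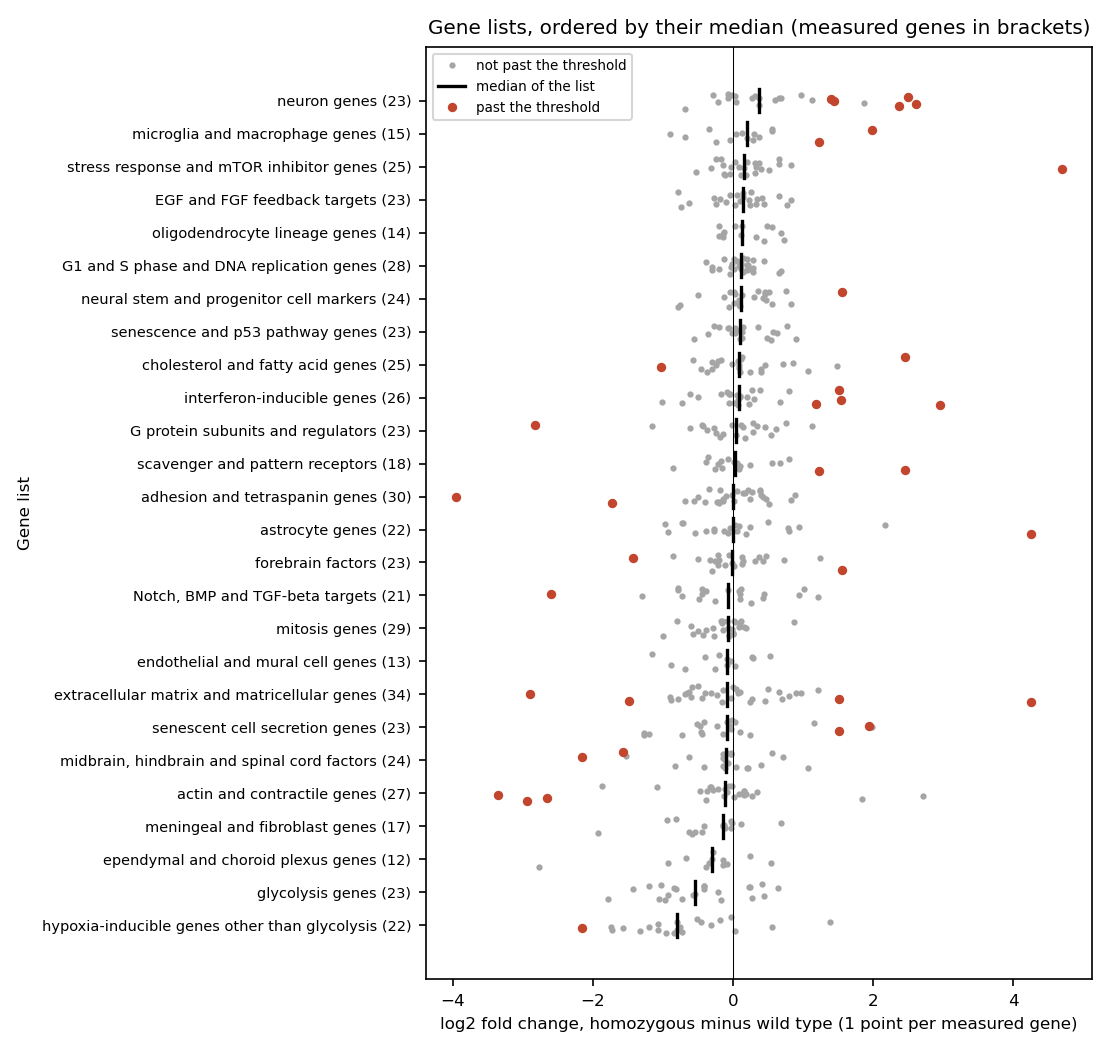
Log2 fold change (homozygous minus wild type, horizontal axis) of each measured gene in the 26 lists (vertical axis), which are ordered by their median, the black bar. Red points passed the threshold and grey points did not. The neuron list has the highest median, 0.38, with 5 red points on the right. Of these points, Nxph1, Brinp1 and Cadps were put on the list with their values known. The glycolysis and other hypoxia-inducible lists have the lowest medians, -0.55 and -0.80, with 1 red point between them.

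Probes without a value on 1 genotype were counted to see whether transcripts appeared or vanished. Of the 2524 untested probes 141 were blank on both wild-type arrays and measured on both homozygous arrays, and 80 the other way. The brightest of them read 9.6 and 6.1, and none exceeded the olfactory level.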

How the data were processed

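Transcript levels were measured with 1 array per sample on 6 samples. The authors deposited probe intensity values on a linear scale in 1 table; every array has a median of 30, so the values were read as already scaled. The sources used here do not give the background correction, the scanner or the rule for blank cells. Per the labels' protocols, column-purified total RNA was amplified to amino allyl RNA and coupled to a dye, while the label field reads biotin.

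The log2 of the deposited intensity was taken with no pseudocount. All 6 arrays were fitted with 1 mean per genotype in limma 3.58.1 (R 4.3.3; lmFit, contrasts.fit, eBayes), with 3 residual degrees of freedom (2 at fewest) and a prior of 3.19. Tests were two-sided, with Benjamini-Hochberg adjustment over 20942 probes and a threshold of 0.05. The number of arrays limits the precision. Errors are standard errors of this fit. Unless another test is named, every adjusted p comes from it.

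Symbols came from the platform annotation: 16625 probes had 1, none several and 6841 none, and 3943 older symbols were updated through a RefSeq gene table of GRCm38.p6. A gene with several probes is given by its brightest. Promoter sequences are RefSeq's. Named genes are Ecrg4, the 15 highest and 15 lowest changes past the threshold with separate genotypes and the brighter genotype above the olfactory level, with 1 probe per gene and no predicted names, up to 4 passing members per direction of each list, the 2 brightest members of each list and the neighbours of Ecrg4; others are marked or illustrate a list. Not all of these brightest members are quoted in the text. The members, the 26 gene lists and the olfactory reference, of 663 probes, were chosen with earlier results of these data known. The script was tested on simulated data. Alternatives covered scaling, pseudocount, filters, model and left-out arrays.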

Additional observations from a re-analysis of the deposited data

Results flagged for a closer look

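Among the genes named by rule, 3 that passed between homozygous and wild type had both heterozygous arrays above the olfactory level and more than 2-fold above every wild-type and homozygous array. The heterozygous arrays enter this comparison only through the spread. The heterozygous geometric mean of Ecrg4 was 359.4, with wild type at 132.2 and homozygous at 1.3. That of Gng2 was 288.9, with wild type at 60.5 and homozygous at 8.5. That of Chl1 was 142.3, with wild type at 31.4 and homozygous at 9.5. The level of these genes thus did not follow the number of changed alleles as labelled.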

How the results depend on the processing

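The 154 calls were 255 with median centring (101 higher and 154 lower, 39.6% higher against 46.8% as reported), 248 with cyclic loess, 924 with a pseudocount of 30, 903 of 9150 probes with the brighter genotype above the olfactory level, 1093 with an intensity trend and robust prior, 88 with array weights, 45 with only the arrays compared and 43 with a replicate block, and between 1 and 45 with 1 array left out. Quantile normalization gave 150 and a value on all 6 arrays 188. The replicate numbers did not pair the samples: deviations of same-numbered arrays correlated at 0.01 between wild type and homozygous, at 0.02 between wild type and heterozygous and at -0.08 between heterozygous and homozygous. Of 52 named passing genes other than Ecrg4, 52 still passed with median centring, 48 with quantile normalization, 51 with cyclic loess, 50 with the pseudocount, 33 with array weights, 23 with only the arrays compared and 21 with the replicate block. None of the 53 named passing genes changed sign under the 16 alternatives. Their wild-type and homozygous arrays did not overlap, so leaving out 1 array could not reverse a sign, and this adds no support. Of 76 other genes followed through the same fits, which did not pass and are not all quoted here, 26 changed sign. With the intensity trend 8 neuron, 6 interferon-inducible and 10 glycolysis genes passed, and with the pseudocount 8, 7 and 4, against 5, 4 and 0. Bounds use the olfactory level, so low signal limits the size of changes in dim probes, and the causes were not tested.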

Other observations

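S100a10 and its binding partner Anxa2 fell together, a pair picked after the values were seen. Anxa2, a calcium-dependent membrane binding protein, read 2942.2 and 2647.4 in wild type, 2692.7 and 2237.0 in heterozygous and 1104.0 and 1201.9 in homozygous cells (-1.28 ± 0.17, limma adjusted p = 0.0408). S100a11, another annexin partner, read 894.3 and 859.0 in wild type and 418.3 and 399.6 in homozygous cells (-1.10 ± 0.16, adjusted p = 0.0492). Of all 22 measured annexin and S100 genes these 3 fell, against 0.392% of all probes, and none rose; the median was -0.26 with 13 below 0. Annexin genes did not all read lower. Anxa5 read 392.8 and 552.7 in wild type and 811.7 and 739.7 in homozygous cells (0.73 ± 0.20, adjusted p = 0.156), and the glial gene S100b read 147.7 and 220.9 against 196.9 and 139.4, which overlap. Gsn, the actin-severing protein gelsolin, also fell, from 90.8 and 101.0 to 44.4 and 45.4, at least 1.78-fold (adjusted p = 0.0408).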
